A study of Mus musculus with 14 samples.

Results

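The 10 genes described here encode enzymes, or subunits of an enzyme complex, that methylate lysines of histone H3 in the mouse oocyte. They are Kmt2a, Kmt2b, Kmt2c and Kmt2d for H3K4, Setd2 for H3K36, Setdb1 and Ehmt2 for H3K9, and Ezh2, Eed and Suz12 for H3K27. They were taken by gene symbol and all 10 were found, of 18562 genes listed in at least 1 of the count tables and 16417 listed in both. RNA was measured by full-length SMART-Seq of oocytes at 2 stages. In germinal vesicle (GV) oocytes meiosis is paused and the large nucleus is still intact, whereas ovulated oocytes have gone on with meiosis and left the follicle. At each stage, oocytes labelled WT came from mice of genotype Clpxfl/fl, which carry floxed Clpx and no Cre, and oocytes labelled CKO from mice of genotype Clpxfl/fl; Zp3-Cre, so all 4 groups come from floxed mice. Zp3-Cre is driven by the promoter of a zona pellucida gene and acts in growing oocytes, after the earliest follicle stages. CLPX is the unfoldase of a protease in the mitochondrial matrix. Each genotype had 4 libraries at the GV stage and 3 at the ovulated stage. The labels give neither the age of the mice nor the number of oocytes or animals behind a library, so p-values measure the spread between these libraries, which may be technical.

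As background, histone methyltransferases set much of the chromatin that the egg passes to the embryo. The growing oocyte spreads H3K4 trimethylation over broad domains, for which KMT2B is needed, and H3K36 trimethylation by SETD2 marks transcribed gene bodies and guides DNA methylation there. SETDB1 and the EHMT2 (G9a) and EHMT1 pair methylate H3K9 and silence retrotransposons and genes. PRC2, built of the catalytic EZH2, the H3K27me3-binding EED and the scaffold SUZ12, deposits H3K27me3, which in the mouse egg also carries DNA methylation-independent imprints. A fully grown oocyte transcribes little or nothing, and many stored mRNAs are degraded or extended at the poly(A) tail as meiosis resumes.

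Clpx, which checks the labels, had 788 to 1767 counts in the GV WT libraries and 16 to 37 in the GV CKO libraries. In ovulated oocytes it had 504 to 633 counts in WT and 8 to 21 in CKO. Total estimated counts were between 25086506 and 28471453 per library. The 12 oocyte markers summed to between 27873 and 58658 CPM, counts scaled to library size, in the GV libraries and to between 11624 and 17301 CPM in the ovulated ones. Of 16 granulosa and cumulus markers, 12 were in both tables, and their sum was 46.6 to 80.6 CPM in GV and 66.4 to 129.6 CPM in ovulated libraries. The defining markers Amh and Foxl2 were among those not listed in both tables. Of 12 tested with stage, Kitl, Ptgs2 and Cyp19a1 were higher and Cyp11a1 lower in ovulated WT oocytes. In CKO, Kitl and Has2 were higher and Fshr, Hsd17b1 and Cyp11a1 lower. Cyp19a1 made up much of the sum, with means of 43.5 CPM in GV WT and 75.9 CPM in ovulated WT oocytes. Ptgs2 was near the counting floor in GV WT (mean 0.076 CPM, then 1.11 CPM). In CKO, Has2 (0.055 to 0.34 CPM), Fshr (0.34 to 0.011 CPM) and Hsd17b1 (0.29 to 0 CPM) were near it at both stages. Of 8 markers of theca, stroma, endothelium and blood, 6 were in both tables, with sums of 20.5 to 45.0 CPM in GV and 45.9 to 109.8 CPM in ovulated libraries. Of 3 of these tested with stage, Pecam1 and Dcn were higher in ovulated WT and Pecam1 in ovulated CKO oocytes. The part of these markers in the members' change with stage was not tested.

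The 10 genes covered about 4 orders of magnitude per transcript length. FPKM, the authors' value per length and library size, is used here to compare levels between genes. Eed and Ezh2 were the most abundant in GV WT oocytes, with medians of 80.3 FPKM (60.2 to 99.3) and 64.2 FPKM (56.5 to 96.1), and their ranges overlapped. Setdb1 (11.3 to 22.9 FPKM) and Suz12 (6.24 to 25.7 FPKM) came next and overlapped each other. Kmt2c (4.75 FPKM), Setd2 (4.39 FPKM), Kmt2b (2.28 FPKM) and Kmt2d (1.98 FPKM) formed a lower tier in which neighbours overlapped. Ehmt2 stood apart at 0.105 FPKM (0.06 to 0.42) and Kmt2a at 0.01 FPKM (0 to 0.02). In GV WT oocytes, 93.2% of listed genes had a lower median FPKM than Eed, and 6.74% had a lower one than Kmt2a.

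In ovulated WT oocytes Ezh2 led with a median of 301 FPKM (222 to 334), above the range of Eed at 171 FPKM (125 to 190). Suz12 followed at 88.9 FPKM (85.2 to 141), with a range that overlapped that of Eed. Kmt2c (29.9 FPKM) and Setdb1 (27.8 FPKM) overlapped, as did Setdb1 and Setd2 (17.0 FPKM), and Setd2 and Kmt2b (12.5 FPKM). Kmt2d (7.32 FPKM), Ehmt2 (0.06 FPKM) and Kmt2a (0.01 FPKM) each lay below the range of the gene before them. The ovulated CKO order was the same except that Setdb1 (40.8 FPKM) stood before Kmt2c (31.7 FPKM), with overlapping ranges.

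**Figure D1:**
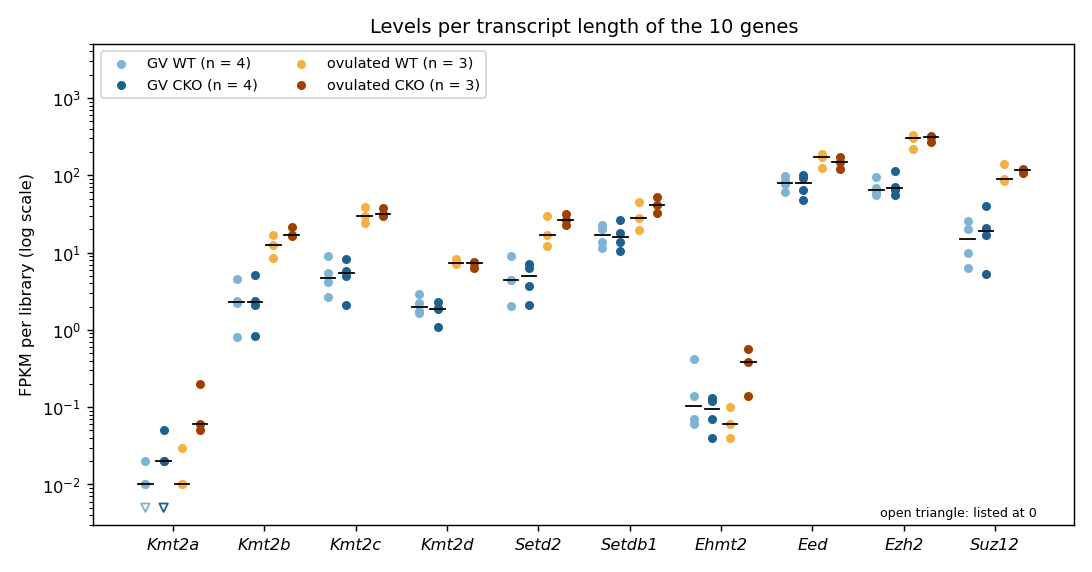
FPKM of each of the 10 genes (horizontal axis) in each of the 14 libraries on a log scale, with colours for the 4 groups, points for libraries, black lines for group medians and open triangles for values listed at 0. Kmt2a and Ehmt2 lie below 1 FPKM in every library, and Ezh2 rises from a median of 64.2 FPKM in GV WT to 301 FPKM in ovulated WT oocytes.

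The first comparison asked how these transcripts differ between the GV and the ovulated WT oocyte. Of the 10 members, 7 rose and none fell: Suz12, Kmt2c, Kmt2b, Ezh2, Setd2, Kmt2d and Eed, by 1.66-fold to 5.46-fold. Of all 13158 genes tested with edgeR's quasi-likelihood test, 29.7% were higher and 34% lower in ovulated oocytes at an adjusted p under 0.05. The median log2 fold change was 1.60 over the 10 members and -0.08 over all genes. In CKO oocytes, which share no library with the WT comparison, 7 of 10 members were also higher: the same genes except that Setdb1 passed and Eed did not. There 25.8% of all genes were higher and 29.9% lower, and the median was 1.44 over the members and -0.14 over all genes. In 6 members (Kmt2b, Kmt2c, Kmt2d, Setd2, Ezh2 and Suz12) each ovulated library lay above each GV library in both genotypes, as it did for 27.3% of all genes in WT and 27.4% in CKO.

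These values are shares of the RNA in a library, so less of other transcripts and more of these cannot be told apart. The stages are also separate tables, so stage and any difference in handling cannot be told apart. With library totals in place of TMM scaling, the median of all genes moved up by 0.34 in WT and 0.59 in CKO on the log2 scale. The calls then split into 4471 higher and 3515 lower in WT, against 3904 and 4472, and into 4688 and 2257 in CKO, against 3397 and 3935. All 7 WT members stayed higher on that scale with Setdb1 added (0.87 on the log2 scale), and in CKO 9 members were higher. Longer genes rose more often: of 4020 tested genes with an annotated transcript of at least 4 kb, 47.3% were higher in ovulated WT oocytes, against 22.2% of 8692 shorter ones. In CKO the shares were 45.1% and 17.7%. The part of length in the members' count was not tested. Annotated lengths of the members differ: 8 have an annotated transcript of at least 4 kb, whereas Eed (2067 bases) and Ezh2 (2787 bases) are shorter.

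**Figure D2:**
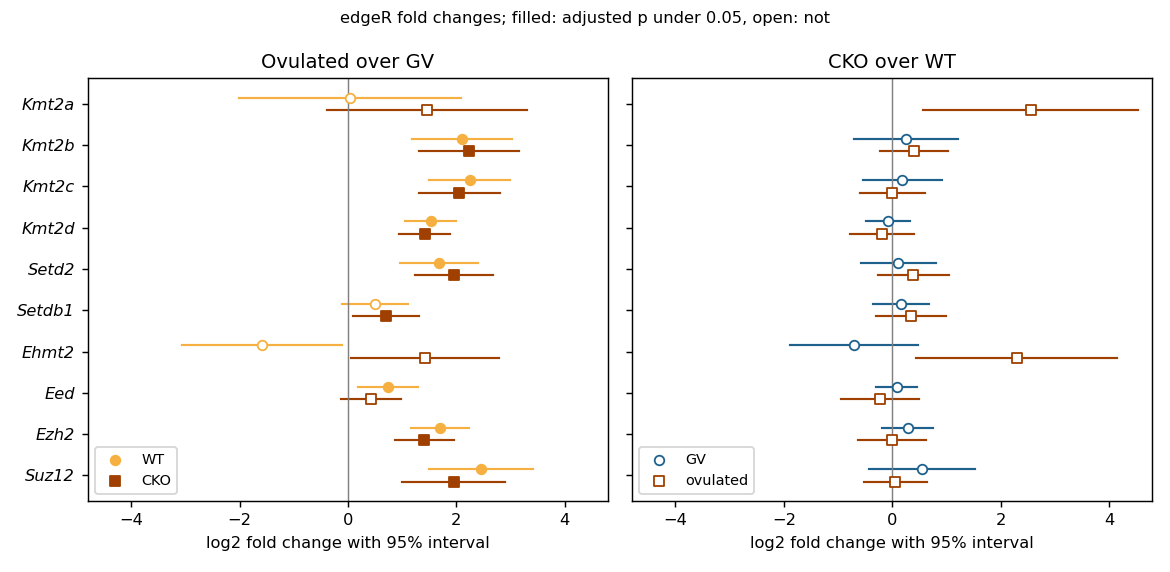
Log2 fold changes (horizontal axes) with 95% intervals from edgeR for the 10 genes, ovulated over GV on the left for WT (circles) and CKO (squares) and CKO over WT on the right for GV (circles) and ovulated oocytes (squares). Filled symbols mark an adjusted p under 0.05: 7 genes in each genotype on the left and none on the right, where Kmt2a has no GV value because it did not pass the filter on low counts.

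Transcripts that are extended at the poly(A) tail in maturing oocytes often carry a cytoplasmic polyadenylation element (CPE) close to the polyadenylation signal. SMART-Seq as usually run starts cDNA at the poly(A) tail, so a longer tail and more mRNA cannot be told apart in these values. The last 100 bases of the annotated GENCODE vM21 transcript (build GRCm38, transcript strand) were searched for TTTTAT or TTTTAAT and for the signals AATAAA or ATTAAA. Where a window held several signals, the one starting nearest to 21 bases from the transcript end was taken. Kmt2c, annotated with 57 bases of 3′ UTR, was not searched. A CPE was found in 5 of the other 9 members, against 17.9% of 19336 transcripts. The stretches that hold it are shown for the 5 members, with capitals for the CPE and, where it falls inside the stretch, for the signal:
Kmt2a: TTTTATttaagtgatagtttaattAATAAA
Kmt2b: ttctatgcacttTTTTATttaagagggcgg
Setd2: ctTTTTATgtaaaaaataaaatcaATTAAA
Setdb1: gacacagtcatgTTTTATttaacctttaat
Eed: aagctgtgttatTTTTATtgtgatggaaac
The CPE starts 24 bases before the start of the signal in Kmt2a, 42 in Kmt2b, 22 in Setd2, 26 in Setdb1 and 29 in Eed. The Setd2 stretch also holds an AATAAA in lower case, which starts 12 bases after the start of the CPE. For Ezh2, Suz12 and Kmt2d, which rose without a CPE in this window, the stretch up to the signal (capitals) is shown for contrast:
Ezh2: gcttgctatgaatatttaataaccAATAAA
Suz12: tttaaaagaaacgtttgtttttacATTAAA
Kmt2d: ttcaaagtttgtttttaaacgataAATAAA
The Suz12 signal starts 76 bases from the transcript end, so only 24 bases before it were searched, fewer than the distance from CPE to signal in Kmt2b, Setdb1 and Eed. Ehmt2 held AATAAA and no CPE in the window. Among tested genes with a searched end, 45.4% of 2384 with a CPE and 27.5% of 9541 without were higher in ovulated WT oocytes, and 41.4% and 23.7% in CKO. Of the 5 members with a CPE, Kmt2b, Setd2 and Eed passed as higher in WT. Setdb1 and Kmt2a, which is near the counting floor, did not. In CKO, Kmt2b, Setd2 and Setdb1 passed as higher, and Eed and Kmt2a did not. The part of the CPE in the members' change was not tested. A match is a description of letters and not a site shown to act.

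Among the H3K4 enzymes, the KMT2B, KMT2C and KMT2D transcripts rose and Kmt2a stayed near the counting floor. Kmt2b (chromosome 7, 30568858 to 30588726, minus strand), the H3K4 trimethylase needed in the growing oocyte, had 11.7, 15.6, 22.5 and 6.13 CPM in the 4 GV WT libraries and 67.3, 71.6 and 41.6 CPM in the 3 ovulated WT libraries. The lowest ovulated library was above the highest GV one. Its log2 fold change was 2.10 ± 0.44 (SE; adjusted p = 0.000542) in WT and 2.23 ± 0.44 (adjusted p = 0.000472) in CKO oocytes, by edgeR. Kmt2c (chromosome 5, 25271798 to 25498783, minus strand), an enhancer H3K4 monomethylase, had 63.2, 106, 134 and 60.4 CPM in GV WT and 476, 469 and 346 CPM in ovulated WT libraries. The groups were far apart, and the change was 4.74-fold in WT (95% interval 2.83 to 7.94) and 4.16-fold in CKO (2.49 to 6.96). Kmt2d (chromosome 15, 98831669 to 98871204, minus strand), the close relative of Kmt2c, had 40.8, 38.8, 50.6 and 47.4 CPM in GV WT and 157, 106 and 121 CPM in ovulated WT libraries. It rose 2.88-fold in WT (2.08 to 4.00) and 2.67-fold in CKO (1.93 to 3.71), with the narrowest interval of the 10 genes in both on the log2 scale.

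Kmt2a (chromosome 9, 44803355 to 44881296, minus strand), best known for keeping Hox genes active, had 0, 5, 6 and 9 counts in the GV WT libraries and 12, 4 and 3 in the ovulated WT ones. The groups overlapped, and the log2 fold change of 0.03 had an interval from -2.01 to 2.08. In CKO it had 1, 8, 23 and 10 counts in GV and 21, 85 and 25 in ovulated libraries, with a log2 fold change of 1.46 ± 0.87 (adjusted p = 0.163, edgeR) and groups that overlapped. An annotated antisense gene overlaps exons of Kmt2a, and no source used here says that counting used the strand.

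Other genes listed for H3K4 methylation and the subunits that KMT2 complexes share moved both ways. Of 7 tested other genes listed for H3K4 methylation, 3 rose and 1 fell in WT, and likewise in CKO. Not all of the list are established H3K4 enzymes, and Ash1l and Kmt2e are among those that are not. Setd1a, the catalytic subunit of a main H3K4 trimethylase complex, rose by 2.69 on the log2 scale in WT and 2.55 in CKO. Ash1l (2.09 and 1.81) and Kmt2e (1.79 and 1.61) also rose, and Smyd2 fell by 4.72 and 2.10. Smyd2 averaged 0.19 CPM in ovulated WT and 0.98 CPM in ovulated CKO oocytes, so these sizes rest on few counts. The COMPASS cofactors are subunits and partners of H3K4 enzymes. Of 14, 8 rose and 3 fell in WT, and 8 rose and 2 fell in CKO. Psip1, which tethers menin to chromatin, rose by 2.58 and 2.21, Bod1l by 2.36 and 2.18, and Hcfc1 by 1.62 and 1.87. Men1, the menin scaffold of the KMT2A and KMT2B complexes, fell by 3.40 on the log2 scale in WT, with 17.0 ± 2.4 CPM at the GV stage (SD, n = 4) and 1.61 ± 0.65 CPM after ovulation (SD, n = 3). Men1 did not pass in CKO oocytes. The stage difference of the CKO effect on Men1 was 2.26 (unadjusted p = 0.00414, edgeR) and did not pass after adjustment. The KMT2C and KMT2D partner Pagr1a fell by 3.11 and 1.62, and Ash2l, a core subunit, by 1.04 and 0.90.

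Setd2 (chromosome 9, 110532597 to 110618633, plus strand), the H3K36 trimethylase, had 33.3, 42.7, 65.3 and 23.1 CPM in GV WT libraries and 134, 176 and 84.6 CPM in ovulated WT libraries. No library overlapped, and the change was 1.68 ± 0.34 on the log2 scale (SE; adjusted p = 0.000475, edgeR) in WT. In CKO oocytes it was 1.96 ± 0.34 (adjusted p = 0.000198). Of 7 other genes listed for H3K36 methylation, 2 rose and 3 fell in each genotype. Nsd2, an H3K36 dimethylase, rose by 1.68 in WT and 1.52 in CKO, and Setd5 by 2.55 and 2.73. Setmar fell by 2.83 and 3.08, Smyd5 by 4.22 and 2.65, and Setd3, since shown to methylate actin, by 1.03 and 1.13. Smyd5 averaged 0.44 CPM in ovulated WT and 1.16 CPM in ovulated CKO oocytes, so its sizes rest on few counts.

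Setdb1 (chromosome 3, 95323525 to 95357202, minus strand), the partner of KRAB zinc finger silencing, had 56.1, 105, 89.2 and 68.8 CPM in GV WT libraries and 118, 145 and 75.3 CPM in ovulated WT libraries. These ranges overlapped, and the log2 fold change of 0.50 ± 0.29 did not pass (adjusted p = 0.138, edgeR). In CKO it was 0.70 ± 0.29, with an adjusted p of 0.0488, close to the threshold, and the call was lost in 6 of 7 fits that left out 1 library (0.58 to 1.05). Exons of Setdb1 overlap those of Cers2 on the other strand, so its counts are uncertain if strand was not used.

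Ehmt2 (chromosome 17, 34898469 to 34914052, plus strand), which encodes the H3K9 dimethylase G9a, had 14, 7, 40 and 6 counts in the GV WT libraries and 4, 5 and 9 in the ovulated WT ones. In CKO oocytes it had 11, 7, 12 and 4 counts in GV and 35, 54 and 13 in ovulated libraries. The log2 fold change with stage was -1.59 ± 0.70 in WT (adjusted p = 0.0559) and 1.42 ± 0.64 in CKO (adjusted p = 0.0702), and neither passed with edgeR. In WT the call passed without GV WT replicate 2 (-1.76) and without ovulated WT replicate 3 (-2.03), and in CKO without ovulated CKO replicate 3 (1.77). Ehmt1, the partner of G9a, was far more abundant and rose in WT by 1.81, with 15.5 ± 4.4 CPM at the GV stage (SD, n = 4) and 54.1 ± 10.9 CPM after ovulation (SD, n = 3), and by 2.03 in CKO.

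Of 18 other H3K9 methyltransferases and cofactors, 8 rose in each genotype, and 2 fell in WT and 3 in CKO. Suv39h1, which trimethylates H3K9 in pericentromeric heterochromatin, fell most of the genes named from this list. It had 129 ± 14 CPM in GV WT (SD, n = 4) and 6.41 ± 3.47 CPM in ovulated WT oocytes (SD, n = 3), 20.2-fold lower, and fell by 4.00 on the log2 scale in CKO. Mphosph8, a subunit of the HUSH silencing complex, rose by 2.06 in WT and 1.36 in CKO. Cbx1, an HP1 protein, rose by 1.35 in WT, and Trim28, the corepressor that recruits SETDB1, by 2.27 in CKO. Here and below, only the genes with the smallest p were named per genotype. A gene given for WT or CKO alone may also have passed in the other. Cbx1 averaged 61.8 CPM in GV CKO and 111 CPM in ovulated CKO oocytes, and Trim28 54.5 and 209 CPM in WT. Atf7ip2 fell by 1.13 and 1.44, and Cbx5 by 0.72 in CKO.

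All of the PRC2 core was higher in ovulated WT oocytes, but by unequal amounts. Suz12 (chromosome 11, 79993106 to 80034123, plus strand) had 38.3, 98.6, 93.8 and 35.8 CPM in GV WT and 355, 429 and 306 CPM in ovulated WT libraries. The lowest ovulated library had 306 CPM and the highest GV one 98.6 CPM, and the change was 5.46-fold (95% interval 2.81 to 10.6), or 3.86-fold (2.00 to 7.44) in CKO. Ezh2 (chromosome 6, 47530139 to 47595341, minus strand) had 134, 192, 202 and 186 CPM in GV WT and 694, 582 and 461 CPM in ovulated WT libraries. It rose 3.25-fold in WT (2.23 to 4.73) and 2.65-fold in CKO (1.82 to 3.86), with no overlap in either genotype. Eed (chromosome 7, 89954654 to 89980983, minus strand) had 130, 182, 160 and 152 CPM in GV WT and 336, 169 and 275 CPM in ovulated WT libraries. The second ovulated library lay within the GV range. Its change was 1.66-fold in WT (1.13 to 2.44; adjusted p = 0.0215, edgeR) and 1.34-fold in CKO (0.92 to 1.97; adjusted p = 0.175). The WT call was lost without GV WT replicate 1 (log2 fold change 0.65), without ovulated WT replicate 1 (0.51) and without ovulated WT replicate 3 (0.68). Non-coding genes on the other strand overlap exons of all 3 genes.

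Ratios within a library do not depend on its total. The FPKM of Ezh2 was 0.79 to 0.97 times that of Eed in GV WT and 0.69 to 1.22 times in GV CKO libraries. It was 1.29 to 2.68 times in ovulated WT and 1.78 to 2.63 times in ovulated CKO libraries, so the stages did not overlap in either genotype. The ratio of Ezh2 to Suz12 ranged from 2.80 to 10.4 over the GV groups and from 2.32 to 3.39 over the ovulated groups, which overlapped. Kmt2c over Kmt2d rose from 1.52 to 3.28 in GV WT to 3.41 to 5.30 in ovulated WT libraries, and overlapped between the stages in CKO (1.91 to 4.53 against 4.19 to 5.10). These ratios were chosen with their values known and carry no test.

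Of 9 tested PRC2 partners, 8 rose and none fell in WT, and 7 rose and none fell in CKO. Jarid2, which recruits PRC2, rose by 1.96 and 2.06, and Phf19, a Polycomb-like subunit, by 2.50 and 2.07. Lcor rose by 2.03 in WT and Aebp2 by 1.37 in CKO. Lcor averaged 9.18 CPM in GV CKO and 26.9 CPM in ovulated CKO oocytes, and Aebp2 44.5 and 133 CPM in WT. Of 17 tested PRC1 subunits, 7 rose in each genotype, and 2 fell in WT and 1 in CKO. Phc2 rose by 2.20 and 2.85, Bmi1 by 1.47 and 1.36, Rnf2, the ubiquitin ligase of PRC1, by 1.14 in WT, and Cbx2 by 2.22 in CKO. Rnf2 averaged 127 CPM in GV CKO and 205 CPM in ovulated CKO oocytes, and Cbx2 20.5 and 64.7 CPM in WT. Phc1 (1.11) and Cbx7 (1.42, to a mean of 0.43 CPM) fell by these log2 values in WT, and Pcgf1 by 0.59 in CKO. Each of these passed as lower in that genotype alone. Of 12 listed genes known for maternal H3K27me3-dependent imprints, 5 passed the filter on low counts. Bbx rose by 1.63 and 1.42 and Etv6 by 2.16 and 1.99, Rbms1 by 1.87 in CKO, and Gab1 fell by 1.44 in CKO. Sfmbt2 also passed in WT, from 0.021 CPM in GV to 0.33 CPM in ovulated oocytes, levels at which no fold is given.

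Of 19 tested lysine demethylases, which remove such marks, 11 rose and 2 fell in WT, and 10 rose and 1 fell in CKO. The H3K27 demethylase Kdm6b rose by 1.73 in WT, the H3K9 and H3K27 demethylase Kdm7a by 2.55 in WT and 2.16 in CKO, the H3K4 demethylase Kdm5c by 1.96 and 1.58, and the H3K36 demethylase Kdm2a by 2.41 in CKO. Kdm6b averaged 94.1 CPM in GV CKO and 224 CPM in ovulated CKO oocytes, and Kdm2a 3.52 and 16.2 CPM in WT. Kdm4b fell by 2.82 and 2.85, and Kdm4d, which was under 1 CPM on average in each group, by 3.17 in WT. Kdm4b averaged 0.27 CPM in ovulated WT and 0.25 CPM in ovulated CKO oocytes. Among 5 genes listed for H3K79 and H4K20 methylation, 3 rose in WT, and 2 rose and 1 fell in CKO. Setd6 is listed with them but is not known as an enzyme of either mark. Dot1l (2.52 and 2.69) and Kmt5a (2.01 and 2.21) rose in both genotypes, Setd6 (0.97) in WT, and the low Kmt5c fell in CKO. Of 8 tested genes listed for protein arginine methylation, 2 rose and 2 fell in WT, and 3 rose and 3 fell in CKO. The PRMT5 cofactor Wdr77 is among those that fell in CKO, from 0.39 CPM in GV to 0 CPM in ovulated oocytes. Prmt5 rose by 0.92 and 1.00 and Prmt7 fell from 70.6 to 1.37 CPM in WT, 51.1-fold lower. Over all 104 tested genes of these 9 pathway lists, 52 rose and 15 fell in WT, with a median of 0.72, and 50 rose and 15 fell in CKO, with a median of 0.67.

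**Figure D3:**
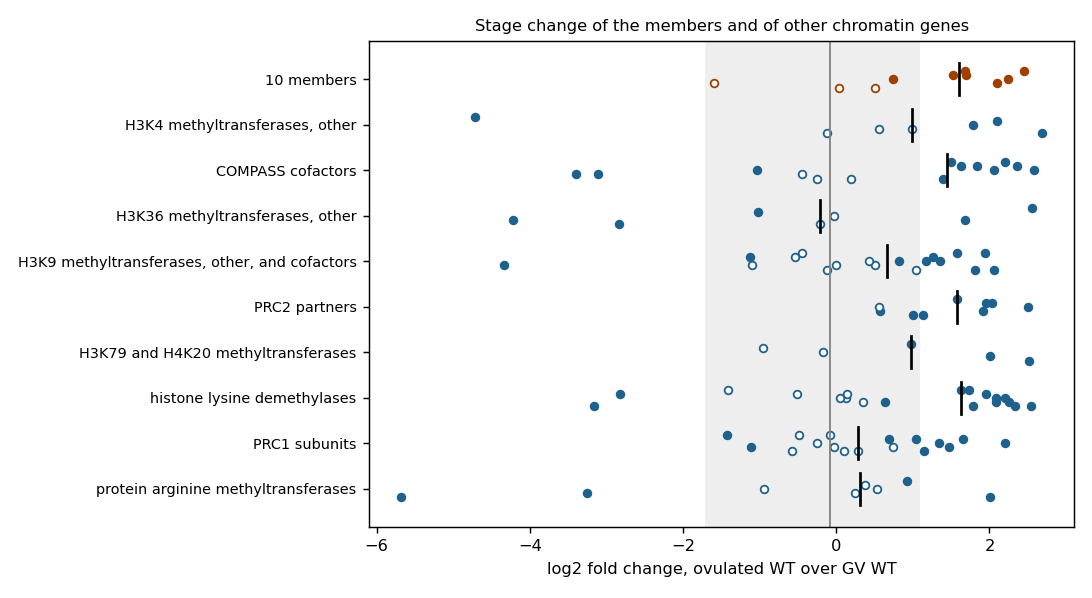
Log2 fold change of ovulated over GV WT oocytes (horizontal axis) for the 10 members and 9 lists of other chromatin genes, 1 point per gene, filled where the adjusted p was under 0.05, with black lines for list medians, a grey line for the median of all genes and a grey band for its middle quartiles. The members' median is 1.60, against 0.72 over the 104 other genes and -0.08 over all genes.

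The second comparison asked whether loss of Clpx changed these transcripts within a stage, and no member passed at either stage. In GV oocytes 9 members were tested, with 0 called and adjusted p between 0.858 and 0.952 by edgeR. None had an unadjusted p under 0.05, and DESeq2 called 0 too. Of all 12265 genes tested, 0.0245% were called and 704 had an unadjusted p under 0.05. No member had GV libraries of the 2 genotypes that did not overlap, against 3.66% of 12255 genes. The intervals bound the change that the data allow. For Eed the fold change was 1.06 (0.82 to 1.37), for Kmt2d 0.94 (0.71 to 1.25) and for Ezh2 1.22 (0.88 to 1.68). They were wider for Suz12 (1.47, 0.74 to 2.90), Kmt2b (0.61 to 2.33), Kmt2c (1.14, 0.68 to 1.89) and Setd2 (1.08, 0.67 to 1.75). Setdb1 lay between, at 1.12 (0.78 to 1.60), and Ehmt2 had the widest interval on the log2 scale, with a fold change of 0.61 (0.27 to 1.38).

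The libraries of a GV group differed widely. Suz12 had 186, 95.1, 82.2 and 33.4 CPM in them, against 38.3, 98.6, 93.8 and 35.8 CPM in GV WT. Kmt2b had 32.0, 16.4, 12.7 and 6.96 CPM in GV CKO and Kmt2c had 154, 132, 79.6 and 52.1 CPM. In each of these genes the first CKO library was highest and the fourth lowest, and the groups overlapped. Setd2 had 56.8, 41.5, 55.8 and 25.9 CPM in GV CKO, Setdb1 132, 84.3, 74.7 and 69.1 CPM, and Ezh2 301, 212, 160 and 200.2 CPM. Eed (191, 162, 178 and 133 CPM) and Kmt2d (40.8, 52.4, 42.9 and 32.6 CPM) differed less between these libraries.

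In ovulated oocytes, 0 of 10 members were called by edgeR, with adjusted p between 0.572 and 0.998, and DESeq2, which gave an adjusted p for 8 members and none for Kmt2a and Ehmt2, called 0. Of all 12044 genes tested, 0.0083% were called and 935 had an unadjusted p under 0.05. Of the members, 2 were under that unadjusted value, and both are the least abundant of the 10. Kmt2a had 21, 85 and 25 counts in CKO against 12, 4 and 3 in WT, with a log2 fold change of 2.55 ± 0.90 (SE; unadjusted p = 0.0163, adjusted p = 0.572, edgeR). Ehmt2 had 35, 54 and 13 counts against 4, 5 and 9, with a log2 fold change of 2.29 ± 0.84 (unadjusted p = 0.0195, adjusted p = 0.575, edgeR). For both, each CKO library was above each WT library, as it was for Kmt2b (74.7, 86.0 and 78.9 CPM against 67.3, 71.6 and 41.6 CPM). These 3 of 10 members stand beside 10.7% of all genes whose libraries did not overlap. The intervals of the other fold changes all held 1, with 0.99 for Ezh2 (0.64 to 1.54), 1.04 for Suz12 (0.70 to 1.56), 0.86 for Eed (0.52 to 1.42), 1.00 for Kmt2c (0.66 to 1.52) and 0.88 for Kmt2d (0.58 to 1.32). Ezh2 had 522, 559 and 658 CPM in the ovulated CKO libraries, Suz12 388, 366 and 394 CPM, and Eed 222, 164 and 284 CPM. Kmt2c had 389, 454 and 463 CPM there, and Kmt2d 100.2, 106 and 132 CPM. Each of these groups overlapped that of WT. Setd2 (173, 186 and 165 CPM in CKO) was at 1.31 (0.83 to 2.07), Kmt2b at 1.31 (0.85 to 2.03) and Setdb1 (144, 168 and 126 CPM in CKO) at 1.27 (0.81 to 2.00).

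The third comparison asked whether the CKO effect differed between the stages. None of the 10 members passed, by edgeR or DESeq2, and 0.0076% of 13158 genes did. Ehmt2 had the lowest unadjusted p (0.00569; adjusted p = 0.320, edgeR), with a difference of 3.01 ± 0.95 on the log2 scale. Its effect was -0.71 in GV and 2.29 in ovulated oocytes. Kmt2a followed in size with 1.43 ± 1.34. The other 8 differences were between -0.50 (Suz12) and 0.28 (Setd2). Of the other chromatin genes, 0 of 101 tested in GV, 0 of 100 in ovulated oocytes and 0 of 104 for the stage difference passed with edgeR. Of these, 5, 7 and 6 had an unadjusted p under 0.05, against 5.74%, 7.76% and 9.16% of all genes tested. Rnf2 led the PRC1 list in GV oocytes by unadjusted p, with a log2 fold change of 0.62. There Phf1 (-0.93) led the PRC2 partners and Kdm4d (-1.23), under 1 CPM on average, the lysine demethylases. Men1 (2.13) led the COMPASS cofactors, Bcor (1.30) the PRC1 list and Kdm4a (-0.95) the lysine demethylases in ovulated oocytes. Only some of the list leaders are named here. None of these passed with edgeR.

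Over the 8 members with at least 10 CPM on average, log2 CPM minus the group mean was correlated over the 14 libraries, which share depth and scaling, so the values are a description. Of 28 pairs, 15 had Pearson's r over 0.5, with a median of 0.56. Kmt2c and Suz12 were closest (0.93), followed by Kmt2b with Kmt2c (0.92) and Kmt2b with Suz12 (0.92). Kmt2d and Setdb1 were least alike (-0.03), and Eed stayed under 0.4 with each of the others except Kmt2d (0.59). In GV CKO replicate 4 all 8 members were below their group mean, by 0.63 on average, and in GV WT replicate 1 all 8 were below it by 0.33. In GV CKO replicate 1, 7 of 8 were above it, by 0.58 on average over the 8. GV CKO replicate 4 also had the highest sum of oocyte markers (58658 CPM) and the lowest TMM factor (0.654), and the part of these in the members' spread was not tested.

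**Figure D4:**
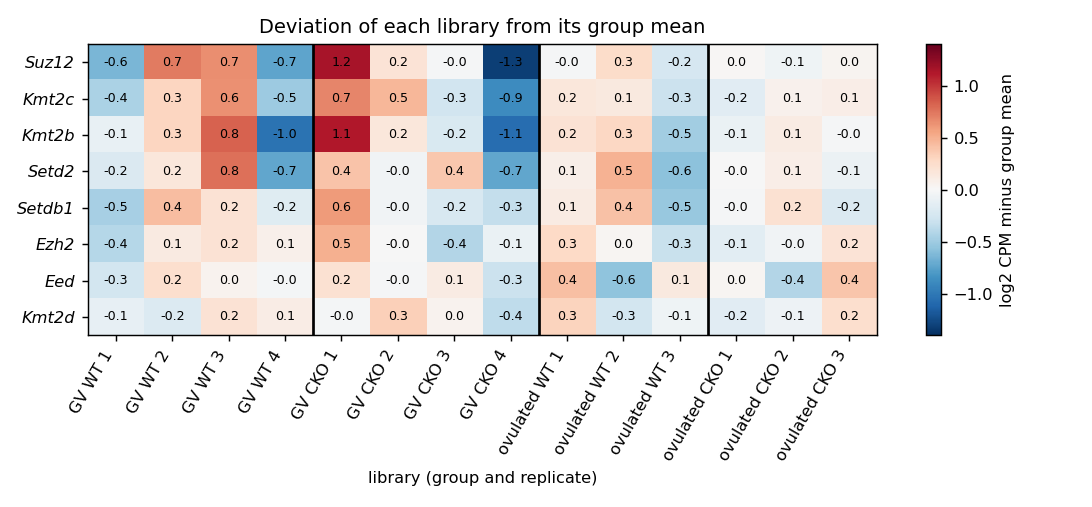
Log2 CPM minus the mean of its group for 8 members (rows) in the 14 libraries (columns), with red above and blue below the group mean and black lines between groups. GV CKO replicate 4 is below its group mean in all 8 rows, down to -1.32 for Suz12, while the ovulated CKO libraries range from -0.41 to 0.38.

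The genes with the most similar pattern over the 14 libraries were taken from 6570 with at least 10 CPM on average. Libraries of both stages enter these correlations, and the part of the stage change in them was not tested. The highest r was 0.996 between Kmt2c and Herc1, 0.995 between Kmt2b and Itpr1, 0.994 between Suz12 and Fmn2 and 0.993 between Ezh2 and Ubqln1. Kmt2d was most like Satb1 (0.988), Setd2 like Tial1 (0.987), Setdb1 like Gna13 (0.974) and Eed like Taf13 (0.964). The second genes were Ccdc88a, Smurf2, Itga6, Herpud2, Sytl2, Synj1, Pdcd7 and Ssu72 for these members in the order given. For the low genes the likeness was weaker, at 0.771 between Kmt2a and Dgkh, then Traf3 (0.762), and 0.731 between Ehmt2 and Pacs1, then Smarcd2 (0.721).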

How the data were processed

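RNA was measured in 14 libraries grouped by their labels. Per stage, the authors deposited estimated counts per gene, of which 14.4% to 16.3% of the values per library were fractional, and FPKM values with 2 decimals, scaled to length and library size. The build is mm10, per the submitters' processing notes; aligner, counter, annotation and strand setting are not given in the sources used here. Counts were rounded and tested with edgeR 4.0.16 in R 4.3.3 (quasi-likelihood F-test with robust fitting, TMM scaling and the filterByExpr minimum at 10 counts), with Benjamini-Hochberg adjustment over all genes tested and a threshold of 0.05. Genotypes were compared within a stage. Stages and the stage difference came from 1 fit of 14 libraries on genes in both tables. The scripts were tested on simulated data. CPM uses TMM-scaled totals and likeness log2 CPM with a prior count of 2. Positions, lengths and ends came from GENCODE vM21. The rule named the members, per list the 3 or fewer genes with the smallest p in either direction among those that passed, or the smallest p where none passed, and the 2 most alike genes per member. Members and lists were chosen with earlier results of these data known. Alternatives were other size factors, total counts, other filters, DESeq2 1.42.0, limma-voom and limma 3.58.1 on log2 FPKM, a replicate block and leaving out each library. Library totals bear only on counting error and do not give the precision of the values, since PCR copies are not independent molecules.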

Additional observations from a re-analysis of the deposited data

Results flagged for a closer look

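Ehmt2 in GV WT replicate 3 stood far above the other 3 libraries of its group, at 1.32 CPM (40 counts) against 0.30 to 0.46 CPM. The gap to the next library was 0.84 of the range of the group. Without this library the log2 fold change of Ehmt2 in GV CKO against WT was 0.05 in place of -0.71, and in ovulated against GV WT oocytes it was -0.84 in place of -1.59. Of 20 groups of 4 libraries examined, 1 was marked in this way, and chance marks about 1 in 20.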

How the results depend on the processing

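Kmt2b, Kmt2c, Kmt2d, Setd2, Ezh2 and Suz12 passed as higher in ovulated oocytes of both genotypes under the main setting and all 16 alternatives of each comparison. Members called were 6 to 8 in WT, also over the fits that leave out 1 library (6 to 8), and 6 to 10 in CKO (6 to 7 over the fits that leave out 1 library). Ehmt2 also passed as lower in WT with DESeq2 (-1.58). In CKO it passed as higher with total counts (2.01) and with limma on log2(FPKM + 1) (0.31) and log2(FPKM + 0.1) (1.19). Setdb1 also passed in WT without ovulated WT replicate 3 (0.74). Between the CKO stages, Eed passed with total counts (0.97) and with limma on log2(FPKM + 1) (0.99) and log2(FPKM + 0.1) (1.00), and Kmt2a with limma on log2(FPKM + 0.1) (0.67). Of the members that each alternative gave an adjusted p, none passed for the genotype comparisons or the stage difference. In ovulated CKO against WT, Kmt2a and Ehmt2 had none with DESeq2, and in each comparison neither was tested with a mean of at least 10 CPM. The cause of these changes was not tested. The counts of FPKM calls were added after seeing the data.

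Genes called in GV oocytes went from 3 to 39 with DESeq2 and were 3 to 6 when 1 library was left out. In ovulated oocytes they went from 1 to 114 with DESeq2 and to 64 in the fit of the 14 libraries, and were 1 to 201 when 1 library was left out, with 201 without ovulated CKO replicate 3. For the stage difference they went from 1 to 64 with DESeq2, and to 0 with a mean of at least 10 CPM, limma-voom and both FPKM fits. Leaving out 1 library gave 0 to 498, with 498 without ovulated CKO replicate 3. With a mean of at least 10 CPM, where fewer genes are tested, 5067 genes were called between the WT stages and 4821 between the CKO stages.

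With the replicate number as a block, 6 members were called between the WT stages (7850 genes; Eed lost, 0.63) and 6 between the CKO stages (6847 genes; Setdb1 lost, 0.61). No member passed elsewhere, and for the stage difference 0 genes were called. Same-numbered WT and CKO libraries deviated together with r of -0.30, 0.22, 0.43 and 0.67 in GV and of -0.41, 0.39 and -0.06 in ovulated oocytes. Not every library correlated best with its own number, so the numbers were not taken to pair the libraries.

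Of 863 values of single members under alternatives, 783 kept their direction and side of the threshold, and 56 changed sign, none of which had passed the threshold. These log2 values follow. With total counts they were Setd2 -0.049 and Eed -0.052 for GV CKO against WT, Ezh2 0.076 for ovulated CKO against WT, and Kmt2c 0.082 and Kmt2d 0.16 for the stage difference. With limma on log2(FPKM + 1) they were Kmt2c -0.0061, Setd2 -0.012, Setdb1 -0.0098 and Eed -0.093 in GV, Ezh2 0.094 in ovulated oocytes, and Kmt2c 0.11, Kmt2d 0.085 and Ezh2 0.0056 for the stage difference. With limma on log2(FPKM + 0.1) they were Kmt2c -0.016, Setd2 -0.011, Setdb1 -0.012 and Eed -0.094 in GV, Ezh2 0.095 in ovulated oocytes, and Kmt2c 0.12, Kmt2d 0.16 and Ezh2 0.0050 for the stage difference. In ovulated oocytes Kmt2c was at -0.017 with DESeq2's size factors and with DESeq2, and Ezh2 at 0.0016 in the fit of the 14 libraries. Kmt2d was at 0.00059 for the stage difference with a mean of at least 10 CPM.

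When 1 library was left out, GV CKO against WT ranged from -0.21 to 0.60 for Kmt2b, -0.041 to 0.44 for Kmt2c, -0.20 to 0.012 for Kmt2d, -0.084 to 0.44 for Setd2, -0.056 to 0.31 for Setdb1 and -0.93 to 0.052 for Ehmt2. Ovulated CKO against WT ranged from -0.19 to 0.11 for Kmt2c, -0.20 to 0.099 for Ezh2 and -0.11 to 0.20 for Suz12. Ovulated against GV WT ranged from -0.87 to 0.71 for Kmt2a. The stage difference ranged from -0.20 to 0.66 for Kmt2b, -0.44 to 0.097 for Kmt2c, -0.23 to 0.077 for Kmt2d, -0.035 to 0.61 for Setd2, -0.035 to 0.47 for Setdb1 and -0.72 to 0.025 for Suz12.

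Counts were low for Kmt2a and Ehmt2, at 0 to 85 and 4 to 54 per library.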
